A study of Mus musculus with 5 samples.

Results

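The genes described here are the receptors through which sensory neurons read inflammatory mediators: the 4 receptors of prostaglandin E2 (Ptger1, Ptger2, Ptger3 and Ptger4), the prostacyclin receptor Ptgir, the bradykinin receptors Bdkrb1 and Bdkrb2, the histamine receptor Hrh1, the cysteinyl leukotriene receptor Cysltr2 and the protease-activated receptor F2rl1. They were found by gene symbol, and all 10 were present among the 17267 mouse genes of the count table. The samples were lumbar dorsal root ganglia (DRG) of 5 wild-type, untreated adult C57BL/6 mice of both sexes, dissociated with enzymes and captured in droplets with the Chromium 3′ assay, in which captured RNA molecules are counted by their unique molecular identifiers (UMIs). All animals belonged to 1 condition, so every comparison is between cell types. The authors placed each of 3352 cells in 1 of 14 types by clustering these same counts, and the p-values below therefore describe how far the 5 libraries agree on a difference between types that the counts themselves defined.

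The cell names carried 5 library identifiers, called libraries A to E here and each taken as 1 mouse, and the labels do not say which library is which sample or sex. They held 164 to 1370 cells and 13050375 to 88886919 UMIs, with library A the smallest, and 7 cell barcodes occurred in more than 1 library. Of the types, 12 were neuronal. NP stands for non-peptidergic, PEP for peptidergic and NF for neurofilament-rich neurons, and the genes in a type's name are those it was called after. Each of these 16 genes had its highest level in a type carrying its name, and the itch peptide genes Sst and Nppb were highest in NP_Nts. The summed level of the neuronal markers Rbfox3, Tubb3, Snap25 and Uchl1 was 6138 to 7722 CPM in NP_Nts, 222 to 638 CPM in satellite glia and 275 to 758 CPM in endothelial cells, the last with only 56 cells, 3 of them in library A. Median UMIs per cell ran from 16889 in endothelial cells to 105150 in NP_Mrgprd.

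Prostaglandins, bradykinin, histamine, leukotrienes and proteases are released or activated in inflamed tissue, and each acts on G protein-coupled receptors in the endings of nociceptors and itch neurons. The prostaglandin E2 receptors encoded by Ptger2 and Ptger4 and the prostacyclin receptor couple mainly to Gs and raise cyclic AMP, the receptor encoded by Ptger3 couples mainly to Gi and lowers it, and the receptor encoded by Ptger1 raises calcium. The bradykinin, histamine H1, cysteinyl leukotriene and protease-activated receptors here couple mainly to Gq and phospholipase C, and signals of both kinds can sensitize the channels Trpv1, Trpa1 and Nav1.8, the product of Scn10a.

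In the GENCODE annotation of GRCm38 (the mm10 assembly to which the counts refer), Cysltr2 lies at chr14:73025603-73049114, minus strand, and Ptger2 lies on the same chromosome at chr14:44988195-45003820, plus strand. Ptger3 lies at chr3:157566892-157645888, plus strand, Ptger4 at chr15:5206661-5244187, minus strand, Ptgir at chr7:16906490-16910905, plus strand, Hrh1 at chr6:114397936-114483296, plus strand, F2rl1 at chr13:95511732-95525227, minus strand, and Ptger1 at chr8:83666678-83672753, plus strand. Bdkrb2 (chr12:105563226-105595237, plus strand) and Bdkrb1 (chr12:105603085-105605428, plus strand) are neighbours. Ttc33 overlaps part of Ptger4 on the opposite strand, and the sources used here do not state whether counting used strand, without which reads of both genes cannot be told apart.

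RefSeq (GRCm38.p6) promoter sequences were present for 7 of the 10 genes, Ptger2, Ptger3, Ptger4, Ptgir, Bdkrb2, Hrh1 and Cysltr2. The 250 bases before the start are shown for Cysltr2, which was concentrated in NP_Nts, and for Ptger2 and Ptger3, which shared NP_Mrgprd as the type with most of their UMIs. Capitals mark TGTGG or its reverse complement CCACA, the core of a RUNX site. Runx1 is a transcription factor of developing non-peptidergic neurons. The windows are chr14:73049115-73049364 on the minus strand for Cysltr2, chr14:44987861-44988110 on the plus strand for Ptger2 and chr3:157566626-157566875 on the plus strand for Ptger3.
Cysltr2: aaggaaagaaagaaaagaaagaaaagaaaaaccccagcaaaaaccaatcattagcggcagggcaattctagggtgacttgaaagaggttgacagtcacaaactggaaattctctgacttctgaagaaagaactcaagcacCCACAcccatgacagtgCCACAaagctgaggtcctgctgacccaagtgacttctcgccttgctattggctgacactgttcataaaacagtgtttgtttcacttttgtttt
Ptger2: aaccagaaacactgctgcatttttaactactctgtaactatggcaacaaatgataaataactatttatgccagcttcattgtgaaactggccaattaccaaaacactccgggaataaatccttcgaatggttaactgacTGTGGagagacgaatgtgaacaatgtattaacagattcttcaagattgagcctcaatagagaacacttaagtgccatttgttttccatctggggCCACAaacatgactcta
Ptger3: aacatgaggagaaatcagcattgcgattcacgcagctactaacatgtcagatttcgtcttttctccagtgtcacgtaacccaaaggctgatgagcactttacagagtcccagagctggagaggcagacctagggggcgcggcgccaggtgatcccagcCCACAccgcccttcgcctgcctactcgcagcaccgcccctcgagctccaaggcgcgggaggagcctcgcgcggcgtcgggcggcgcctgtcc
The core occurred 2 times before Cysltr2, 2 times before Ptger2 and 1 time before Ptger3, and it was present in 49.3% of all 32851 promoters of this length. The windows differed in base composition, with 42.8% G and C before Cysltr2, 38% before Ptger2 and 62% before Ptger3, against a median of 52.4% over all promoters. The GC box CCGCCC or its reverse complement GGGCGG was present before Ptger3, Ptger4, Ptgir and 2 of the 4 starts of Hrh1, and in 32.7% of all promoters. TATAAA (both strands) was present before none of the 7 genes and in 12.4% of all promoters.

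Of the 10 receptors, 8 had enough UMIs to be compared, and each of these had its highest level in a neuronal type. Ptger1 was highest in PEP1_S100a11.Tagln2, Ptger4 in PEP1_Slc7a3.Sstr2, Ptgir in PEP2_Htr3a.Sema5a, Ptger2 in PEP3_Trpm8, Ptger3 in NP_Mrgprd, Hrh1 in NP_Mrgpra3, and Cysltr2 and F2rl1 in NP_Nts. For Ptgir, Ptger2 and Hrh1 the difference from the next type was not beyond its spread over the libraries, as given below. The 2 bradykinin receptors had 4 UMIs each among all 3352 cells. Levels are given as CPM, the UMIs of a gene per 1000000 UMIs in the summed cells of a type and library, with libraries in the order A to E. Since the assay counts the 3′ ends of transcripts, levels are compared between types and not between genes. Free transcripts give UMIs in cells that do not express a gene. Satellite glia serve as the type for this background, on the assumption, not tested here, that they do not express these receptors. At a median of 17729 UMIs per cell, a UMI was found in 1.61% of glia for Ptgir and for Ptger4, the highest share of the 10 receptors there. Median depth in neurons ran from 30800.5 in PEP3_Trpm8 to 105150 in NP_Mrgprd, and the background in neurons was not measured. Intervals on shares, and the limits given for counts of 0, cover counting error only.

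**Figure D1:**
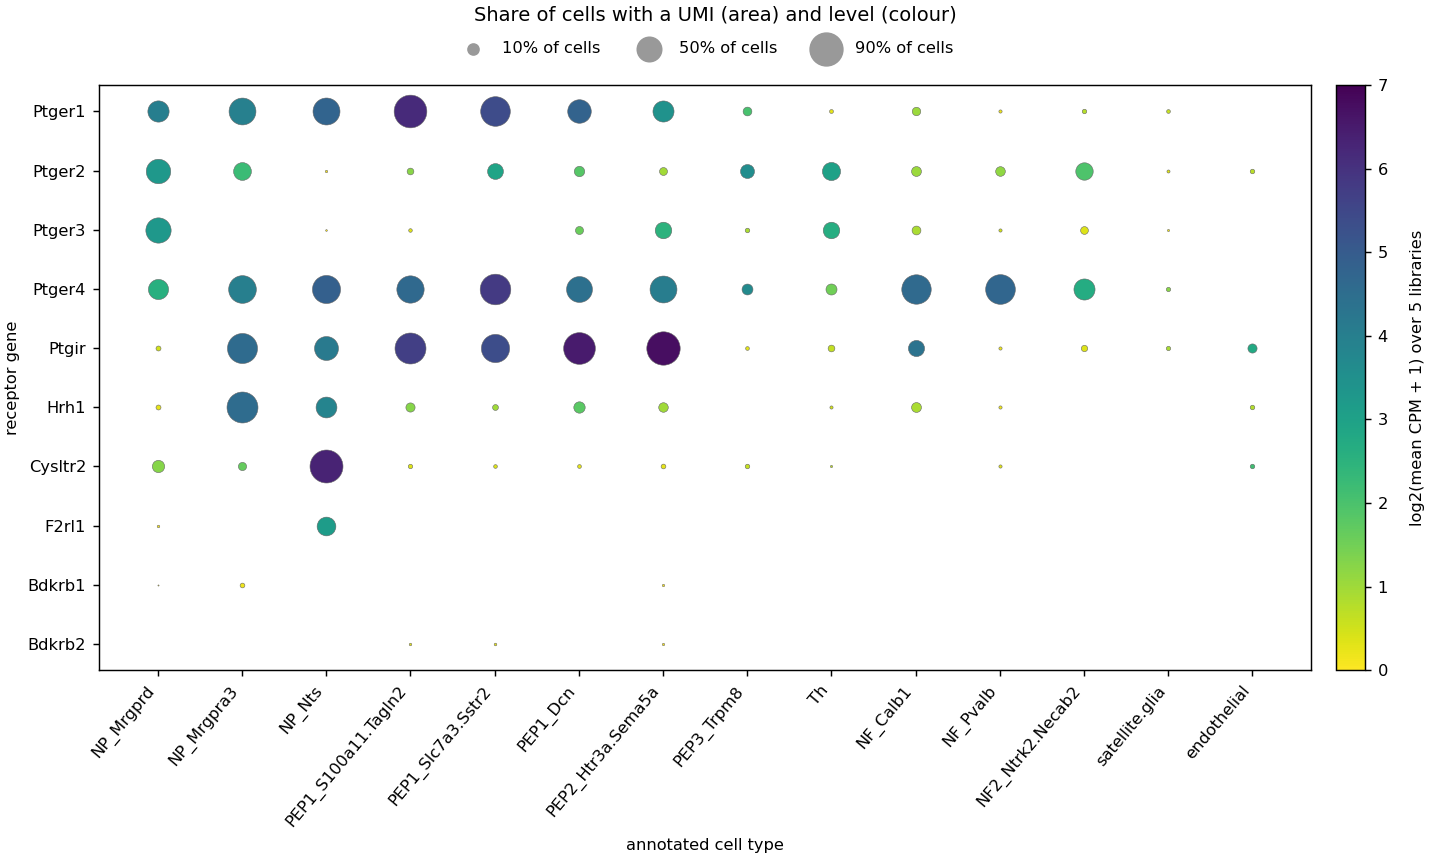
Each circle is a receptor gene (rows) in an annotated cell type (columns); its area is the percent of cells with at least 1 UMI and its colour the log2 of the mean CPM plus 1 over 5 libraries. Cysltr2 and F2rl1 stand in the NP_Nts column, Ptger4 reaches from the NP and PEP types to NF_Calb1 and NF_Pvalb, and the glia and endothelial columns are nearly empty.

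Each type was tested against all other cells with edgeR's quasi-likelihood test on UMIs summed per library, and a receptor was called at a Benjamini-Hochberg adjusted p under 0.05 over all genes tested for that type. Of 99 pairs of a receptor and a type that passed the filter on low counts, 20 (20.2%) were called higher, where 24.1% of all gene and type pairs were. Lower calls numbered 61 (61.6%), against 30.0% of all pairs. Against the mean of the other 13 types on a log scale, each type with equal weight, 38 of 98 pairs were called higher and 11 lower, where 32.2% and 20.6% of all gene and type pairs were. On that scale a type with 0 UMIs of a gene pulls the mean far down. In the pooled other cells, NP_Mrgprd weighs most for the other types, with 92245664 of 224553362 UMIs. The levels in each type, which do not depend on the reference, are given below.

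Ptger1, the receptor through which prostaglandin E2 raises calcium, was highest in the peptidergic types PEP1_S100a11.Tagln2 and PEP1_Slc7a3.Sstr2. In PEP1_S100a11.Tagln2 it measured 66.4, 59.4, 70.5, 87.9 and 68.7 CPM, a mean of 70.6 ± 10.6 CPM (SD, n = 5), and 91.2% of 181 cells (95% exact interval 86.0 to 94.9%) had a UMI. The other cells held 13.4 ± 3.2 CPM (SD, n = 5) without overlap, a log2 fold change of 2.49 ± 0.17 SE, adjusted p = 6.36e-08. PEP1_Slc7a3.Sstr2 followed with 41.8, 44.6, 35.0, 41.0 and 43.7 CPM (log2 fold change 1.57 ± 0.15 SE, adjusted p = 5.47e-07). The step from PEP1_S100a11.Tagln2 to PEP1_Slc7a3.Sstr2, 29.3 ± 12.2 CPM within libraries, was beyond its spread. PEP1_Dcn came next with 51.3, 15.6, 15.6, 32.0 and 18.4 CPM, highest in library A, which had 4 such cells, and its log2 fold change against the other cells was 0.52 ± 0.25 SE, adjusted p = 0.124. With the library as a replicate block the adjusted p of PEP1_Dcn was 0.0254. NP_Nts (26.5 ± 7.53 CPM, SD, n = 5) did not differ from PEP1_Dcn beyond the spread (0.125 ± 10.3 CPM), and was higher than the other cells (log2 fold change 0.70 ± 0.18 SE, adjusted p = 0.00405).

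NP_Mrgprd held the most Ptger1 UMIs of any type, 1116 of 3366, in 900 cells of the highest median depth, at a level of 15.4 ± 6.09 CPM (SD, n = 5). This level and that of NP_Mrgpra3 (14.7 ± 3.12 CPM, SD, n = 5) did not differ beyond their spread. The level was 9.74 CPM in PEP2_Htr3a.Sema5a, 3.08 CPM in PEP3_Trpm8 and 1.08 CPM or less in Th, the 3 NF types, glia and endothelial cells. In endothelial cells no UMI was found among 941065, which allows up to 3.19 CPM.

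Ptger2, the first of the cyclic AMP-raising prostaglandin E2 receptors, was spread thinly. It measured 6.01, 7.33, 22.4, 11.6 and 8.03 CPM in PEP3_Trpm8, named after the cold channel, where library C stood highest, and 6.64, 7.53, 10.3, 9.02 and 9.90 CPM in NP_Mrgprd, where the libraries lay close together. Th followed with 8.67, 8.25, 8.82, 3.52 and 5.21 CPM and PEP1_Slc7a3.Sstr2 with 5.65, 5.53, 4.47, 8.89 and 8.23 CPM. None of these neighbours in the order differed beyond its spread. PEP3_Trpm8 (log2 fold change 1.25 ± 0.29 SE, adjusted p = 0.00243) and NP_Mrgprd (log2 fold change 1.82 ± 0.14 SE, adjusted p = 7.49e-08) were called higher than the other cells. Without library C the type with the highest mean was no longer PEP3_Trpm8. In NP_Nts Ptger2 had 2 UMIs, and 0.5% of the 400 cells had a UMI, as against 50.9% in NP_Mrgprd and 0.803% in satellite glia. These types differ in depth, and with each cell thinned to 10000 UMIs the shares were 0.0678%, 8.86% and 0.477%. The level was 3.67 CPM in NP_Mrgpra3, 2.85 CPM in NF2_Ntrk2.Necab2, 2.62 CPM in PEP1_Dcn and 1.35 CPM or less elsewhere.

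Ptger3, the cyclic AMP-lowering receptor, was highest in NP_Mrgprd. There it measured 8.93, 7.59, 8.56, 9.52 and 8.79 CPM, the narrowest spread of the receptors in their highest types relative to the mean, and the type held 83.0% of all 970 UMIs. NP_Mrgprd also held 92245664 of the 224553362 UMIs of all genes, so this share reflects its size as well as its level. Against the other cells at 1.49 ± 0.835 CPM (SD, n = 5) the log2 fold change was 2.96 ± 0.25 SE, adjusted p = 2.02e-07. Th measured 9.64, 2.90, 2.94, 3.52 and 7.29 CPM, a step of 3.42 ± 2.91 CPM below NP_Mrgprd. Th and PEP2_Htr3a.Sema5a (8.09, 2.80, 5.50, 2.15 and 4.78 CPM) did not differ beyond their spread. PEP1_Dcn followed with 2.00 CPM. Ptger3 had 0 UMIs in NP_Mrgpra3, PEP1_Slc7a3.Sstr2 and endothelial cells and 1 UMI in NP_Nts. A count of 0 among 13407111 UMIs allows up to 0.224 CPM in PEP1_Slc7a3.Sstr2, so that NP_Mrgprd was at least 39.0-fold higher, and at least 27.8-fold higher than NP_Mrgpra3.

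Ptger4, which also raises cyclic AMP, was the most widely shared receptor and was called higher in 6 of the 14 types. PEP1_Slc7a3.Sstr2 stood apart with 53.1, 57.2, 61.9, 49.6 and 51.5 CPM, all 5 libraries above every library of any other type, and 79.8% of 342 cells (95% exact interval 75.2 to 83.9%) had a UMI. Its log2 fold change was 2.19 ± 0.11 SE, adjusted p = 9.96e-10. NP_Nts came next with 36.5, 26.1, 28.7, 27.5 and 22.7 CPM, 26.4 ± 6.88 CPM lower within libraries. From NP_Nts down through NF_Pvalb (25.1 ± 4.56 CPM, SD, n = 5), PEP1_S100a11.Tagln2 (23.8 ± 7.58 CPM, SD, n = 5), NF_Calb1 (23.3 ± 3.44 CPM, SD, n = 5), PEP1_Dcn (20.7 ± 6.67 CPM, SD, n = 5) and PEP2_Htr3a.Sema5a (15.8 ± 7.11 CPM, SD, n = 5) no neighbours differed beyond their spread. NF_Pvalb, the parvalbumin-rich type, and NF_Calb1 were each higher than the other cells (log2 fold change 0.83 ± 0.14 SE, adjusted p = 9.86e-05 and log2 fold change 0.65 ± 0.11 SE, adjusted p = 1.50e-04), as were NP_Nts, PEP1_S100a11.Tagln2 and PEP1_Dcn. The call in PEP1_Dcn was lost without library C (adjusted p = 0.110).

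The levels of Ptger4 and Ptger3 were unlike in NP_Mrgprd and Th. Ptger4 measured 3.74, 5.04, 7.09, 4.66 and 4.37 CPM in NP_Mrgprd and 2.89, 2.23, 0.840, 1.28 and 2.08 CPM in Th, each below the other cells of the same library, with log2 fold changes of -1.80 ± 0.14 SE, adjusted p = 1.12e-07, and -3.07 ± 0.22 SE, adjusted p = 2.85e-08. It was near these low levels in NF2_Ntrk2.Necab2 (5.47 ± 2.87 CPM, SD, n = 5) and at 14.9 ± 5.39 CPM (SD, n = 5) in NP_Mrgpra3. In PEP3_Trpm8 it ranged from 0 CPM in library B to 39.1 CPM in library A, on 39 UMIs, and was not called (log2 fold change -0.89 ± 0.49 SE, adjusted p = 0.154). Without library A the adjusted p was 0.0208, on the lower side.

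Ptgir, the prostacyclin receptor, had 4641 UMIs. It was highest in PEP2_Htr3a.Sema5a with 71.2, 128, 137, 91.4 and 103 CPM, where 95.1% of 206 cells (95% exact interval 91.3 to 97.6%) had a UMI and the log2 fold change was 2.93 ± 0.19 SE, adjusted p = 5.26e-08. PEP1_Dcn measured 30.8, 118, 106, 98.0 and 94.1 CPM (log2 fold change 2.39 ± 0.22 SE, adjusted p = 9.25e-07), with library A far below the other 4, and the step between both types, 16.9 ± 18.7 CPM, was not beyond its spread. PEP1_S100a11.Tagln2 (39.8, 50.1, 62.1, 50.4 and 50.3 CPM) and PEP1_Slc7a3.Sstr2 (37.3, 43.3, 55.2, 32.4 and 35.5 CPM) were also higher than the other cells (log2 fold change 1.40 ± 0.20 SE, adjusted p = 7.96e-05 and log2 fold change 0.99 ± 0.21 SE, adjusted p = 0.00117). In this comparison with the pooled other cells, all 4 calls of higher Ptgir were thus in PEP types.

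Outside the PEP types, Ptgir measured 22.9 ± 4.68 CPM (SD, n = 5) in NP_Mrgpra3, 19.1 ± 7.20 CPM (SD, n = 5) in NF_Calb1 and 16.6 ± 3.27 CPM (SD, n = 5) in NP_Nts, without neighbours differing beyond the spread. The library block moved 2 of these calls: NP_Mrgpra3 became higher than the other cells (adjusted p = 0.0473, 0.236 without it) and NP_Nts lower (0.00392, 0.0719 without it). In the remaining neurons the gene was near 0, with 0.415, 0.622, 0.134, 0.451 and 0.296 CPM in NP_Mrgprd, 0.554 CPM in Th, 0.30 CPM in NF2_Ntrk2.Necab2, 0.234 CPM in PEP3_Trpm8 and 0.125 CPM in NF_Pvalb. The share of NP_Mrgprd cells with a Ptgir UMI was 2.11%, at a higher depth than in glia. With each cell thinned to 10000 UMIs it was 0.321% in NP_Mrgprd and 0.997% in satellite glia. Of the 5 PEP types, PEP3_Trpm8 was the one in which Ptgir was not called higher. Endothelial cells had 4 UMIs, 17.2, 3.31, 3.69, 4.96 and 0 CPM by library, and satellite glia 6 UMIs.

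Hrh1, the histamine H1 receptor, was found in the itch neurons. In NP_Mrgpra3, named after a receptor for pruritogens, it measured 9.79, 28.8, 28.4, 21.1 and 23.2 CPM, with library A, of 4 cells, lowest, and 81.7% of 104 cells (95% exact interval 72.9 to 88.6%) had a UMI. Its log2 fold change against the other cells at 1.62 ± 0.389 CPM (SD, n = 5) was 4.03 ± 0.25 SE, adjusted p = 1.68e-08. NP_Nts, the type with the itch peptide genes Nppb and Sst, measured 20.5, 14.2, 11.9, 12.6 and 7.10 CPM (log2 fold change 2.90 ± 0.24 SE, adjusted p = 1.76e-07), and 37% of 400 cells (95% exact interval 32.3 to 41.9%) had a UMI. The difference between the 2 types within libraries, 9.01 ± 11.5 CPM, was not beyond its spread, with NP_Mrgpra3 above NP_Nts in 4 of 5 libraries. PEP1_Dcn came next with 2.47 CPM, and every other type had 1.41 CPM or less. Hrh1 had 0 UMIs in PEP3_Trpm8, NF2_Ntrk2.Necab2 and satellite glia.

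Cysltr2, a receptor of cysteinyl leukotrienes, was concentrated in NP_Nts. It measured 102, 67.8, 74.6, 77.9 and 73.7 CPM there, 92.8% of 400 cells (95% exact interval 89.8 to 95.1%) had a UMI, and the type held 90.4% of 1780 UMIs. The other cells held 0.802 ± 0.124 CPM (SD, n = 5), a log2 fold change of 6.52 ± 0.15 SE, adjusted p = 2.48e-12. NP_Mrgprd had 1.04, 1.24, 1.74, 1.80 and 1.27 CPM and 12.9% of its cells had a UMI. NP_Mrgpra3 had 9 UMIs and endothelial cells 1, in library A. Levels in the PEP types, Th and NF_Pvalb were 0.220 to 0.625 CPM. NF_Calb1, NF2_Ntrk2.Necab2 and satellite glia had none. Against satellite glia NP_Nts was at least 115-fold higher. The call of NP_Mrgprd turned direction with the reference: it was lower than the other cells pooled (log2 fold change -2.73 ± 0.33 SE, adjusted p = 6.47e-06) and higher than the mean of the other 13 types at equal weight (log2 fold change 1.96, adjusted p = 2.35e-05). That mean is on a log scale and holds types with 0 Cysltr2 UMIs, which pull it far down.

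F2rl1, the receptor that tryptase and trypsin cleave, had 196 UMIs in all, of which 191 were in NP_Nts and 5 in NP_Mrgprd. In NP_Nts it measured 1.46, 13.8, 7.06, 7.46 and 10.1 CPM, from 10 cells in library A to 183 in library E, and 30% of 400 cells (95% exact interval 25.5 to 34.8%) had a UMI. Against the other cells at 0.0217 ± 0.0211 CPM (SD, n = 5) the log2 fold change was 8.15 ± 0.47 SE, adjusted p = 3.79e-09. F2rl1 passed the filter on low counts only in comparisons that involve NP_Nts, those with the other cells and with NP_Mrgprd. It had 0 UMIs in the other 12 types, and NP_Nts was at least 28.5-fold higher than NP_Mrgpra3.

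The bradykinin receptors passed no filter. Bdkrb1, which inflammation induces in many tissues, had 2 UMIs in NP_Mrgpra3 and 1 each in NP_Mrgprd and PEP2_Htr3a.Sema5a. Bdkrb2, the constitutive receptor, had 2 UMIs in PEP1_Slc7a3.Sstr2 and 1 each in PEP1_S100a11.Tagln2 and PEP2_Htr3a.Sema5a. Each UMI lay in a different cell. The count of 0 for Bdkrb2 among the 92245664 UMIs of NP_Mrgprd allows up to 0.0325 CPM, and that among the 21310364 UMIs of NP_Nts up to 0.141 CPM. No difference between types was detectable for either gene at this depth.

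**Figure D2:**
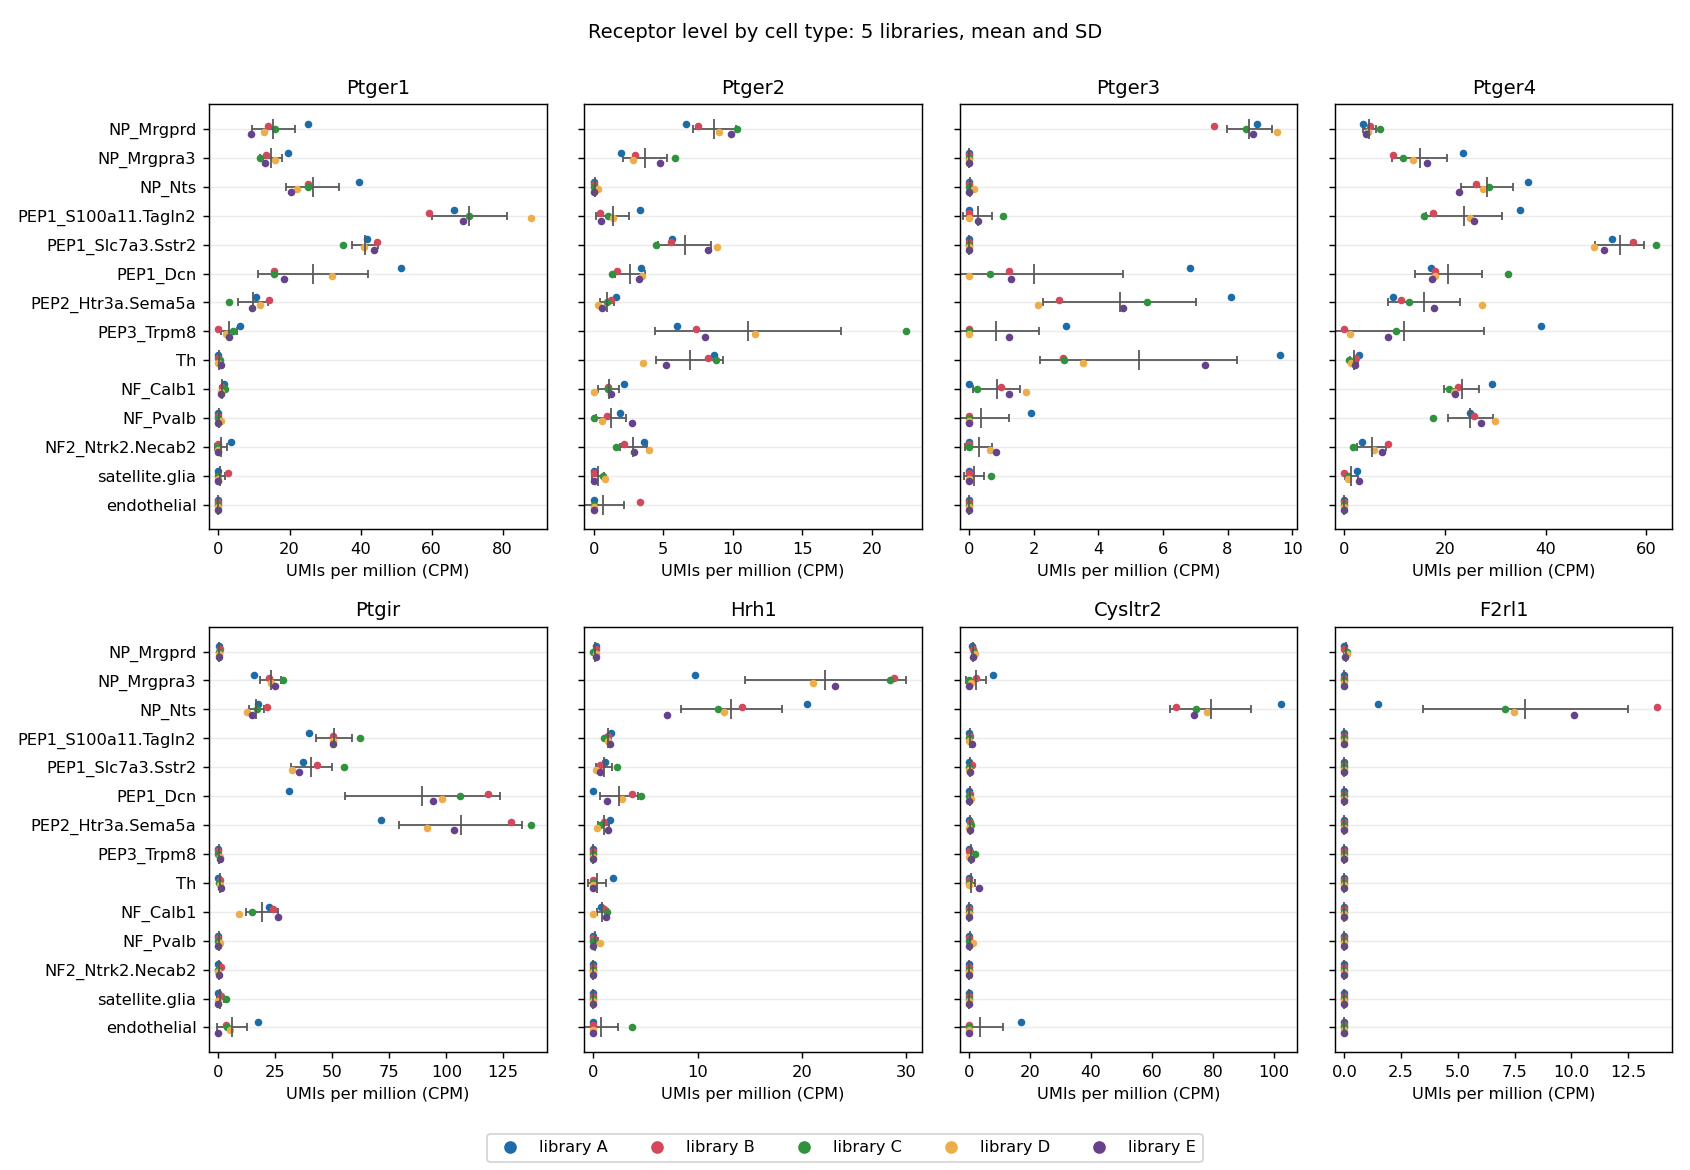
Each panel shows a receptor gene, with UMIs per 1000000 (CPM) on the horizontal axis and the 14 types on the vertical axis; points are the 5 libraries, the vertical tick is their mean and the bar 1 SD. Ptger4 in PEP1_Slc7a3.Sstr2 and Cysltr2 in NP_Nts are clear of every other type, and library A lies below the other libraries for Ptgir in PEP1_Dcn.

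By type, NP_Nts had the most receptors called higher, 5 of 8 tested (Cysltr2, F2rl1, Hrh1, Ptger1 and Ptger4), where 21.7% of all genes tested were higher. F2rl1 passed the filter only through NP_Nts, where it was high, and without it the count was 4 of 7. PEP1_S100a11.Tagln2 and PEP1_Slc7a3.Sstr2 each had 3 of 7 (Ptger1, Ptger4 and Ptgir), against 15.5% and 20.4% of all genes. PEP1_Dcn had 2 of 7 (Ptger4 and Ptgir, 18.5% of all genes) and NP_Mrgprd 2 of 7 (Ptger2 and Ptger3, 30.8% of all genes). A single receptor was higher in PEP2_Htr3a.Sema5a (Ptgir, 27.9%), PEP3_Trpm8 (Ptger2, 22.6%), NP_Mrgpra3 (Hrh1, 16.6%), NF_Calb1 (Ptger4, 33.9%) and NF_Pvalb (Ptger4, 29.9%). With 7 receptors tested per type, counts of 1 or 2 stand near these shares and are no result about the receptors as a group.

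No receptor was called higher in Th, NF2_Ntrk2.Necab2, satellite glia or endothelial cells, where 23.5%, 22.2%, 30.5% and 22.2% of all genes were. At an unadjusted p under 0.05 and with DESeq2 the count in these types was also 0. Against the equally weighted mean of the other 13 types, Ptger2 (log2 fold change 1.84, adjusted p = 1.29e-09) and Ptger3 (3.76, adjusted p = 1.63e-12) were higher in Th. Lower calls were 7 of 7 in satellite glia and in NF2_Ntrk2.Necab2, against 45.5% and 27.4% of all genes tested, 5 of 7 in endothelial cells (44.7%) and in Th (24.4%), and 4 of 7 in NP_Mrgprd (39.7%). The lower call of Ptger2 in NF2_Ntrk2.Necab2 (adjusted p = 0.0382) was lost with DESeq2 (0.0727), with sums of at least 10 cells (0.0877), without cells over 10% mitochondrial UMIs (0.0689) and without library B, C or E (0.0840, 0.0752 and 0.170). At equal weight of the types, 2 of 7 stayed lower in satellite glia and 1 of 7 in NF2_Ntrk2.Necab2. That mean is taken on a log scale, where a type with 0 UMIs of a gene pulls it far down. Ptger1, Ptger3, Ptger4, Hrh1 and Cysltr2 each had such a type, which hinders lower calls and raises the other types. These counts therefore cannot show what the weights alone do. In glia all 10 receptors together had 16 UMIs among 4571598. Fibroblast and Schwann cell markers summed to 177 to 303 CPM and 707 to 1464 CPM in satellite glia, so that this type held transcripts of other non-neuronal cells, while its own markers Fabp7, Apoe, Kcnj10 and Glul summed to 77025 to 101043 CPM. Macrophage markers summed to 17.4 to 55.5 CPM there, most of it Cd68 (mean 27.5 CPM). C1qa, C1qb, C1qc, Csf1r and Ptprc were highest in other types. The part of other non-neuronal cells in the receptor values was not tested.

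The 3 non-peptidergic types were compared with each other in 3 comparisons that share their sums, so each is given by its own values. Receptors nearly absent from 1 type of a pair passed the filter on low counts through the other, where they were high. The counts of receptors that differed in these comparisons are therefore no result about the receptors as a group. NP_Mrgprd and NP_Mrgpra3 differed in 5 of the 6 receptors tested, where 34.3% of all genes did. Ptger2 was higher in NP_Mrgprd (log2 fold change 1.14 ± 0.25 SE, adjusted p = 0.00130), as was Ptger3, with 0 UMIs in NP_Mrgpra3. Ptgir (log2 fold change -5.90 ± 0.25 SE, adjusted p = 3.52e-12), Hrh1 (log2 fold change -6.69 ± 0.30 SE, adjusted p = 7.07e-12) and Ptger4 (log2 fold change -1.55 ± 0.21 SE, adjusted p = 1.19e-05) were lower in NP_Mrgprd, without overlap of the libraries. Ptger1 did not pass the test, at a log2 fold change of 0.02 ± 0.25 SE, adjusted p = 0.977.

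NP_Mrgprd and NP_Nts differed in 8 of 8 receptors tested, against 61.5% of all genes. F2rl1, with 5 UMIs in NP_Mrgprd, entered through NP_Nts and had no value without library D, without library E or without cells over 10% mitochondrial UMIs, and without it the count was 7 of 7. Hrh1 and Ptgir, with 20 and 35 UMIs in NP_Mrgprd, also entered through NP_Nts. Ptger2 and Ptger3, with 2 UMIs and 1 UMI in NP_Nts, entered through NP_Mrgprd. Ptger2 (log2 fold change 6.51 ± 0.43 SE, adjusted p = 1.71e-09) and Ptger3 (log2 fold change 7.33 ± 0.40 SE, adjusted p = 1.28e-10) were higher in NP_Mrgprd. The other 6 were higher in NP_Nts, from F2rl1 (log2 fold change -6.93 ± 0.46 SE, adjusted p = 1.42e-09) to Ptger1 (log2 fold change -0.61 ± 0.22 SE, adjusted p = 0.0272). Libraries overlapped for Ptger1 only, although NP_Nts was above NP_Mrgprd in 5 of 5, and its call was lost without library B, C or D (adjusted p = 0.0650, 0.0633 and 0.0684).

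The itch types NP_Mrgpra3 and NP_Nts differed in 5 of 5 receptors tested, against 42.7% of all genes. Cysltr2, with 9 UMIs in NP_Mrgpra3, entered through NP_Nts. Cysltr2 (log2 fold change -6.16 ± 0.38 SE, adjusted p = 3.11e-10), Ptger4 (log2 fold change -0.81 ± 0.19 SE, adjusted p = 0.00178) and Ptger1 (log2 fold change -0.67 ± 0.19 SE, adjusted p = 0.00806) were higher in NP_Nts. Hrh1 (log2 fold change 1.12 ± 0.25 SE, adjusted p = 0.00120) and Ptgir (log2 fold change 0.69 ± 0.18 SE, adjusted p = 0.00457) were higher in NP_Mrgpra3, in 4 of 5 libraries each and with overlapping values, and the Ptgir call was lost without library E (adjusted p = 0.0503). Hrh1 passed the test over summed counts but not the comparison of the mean difference with its SD given above, in which library A, with 4 NP_Mrgpra3 cells, counts as much as the others.

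**Figure D3:**
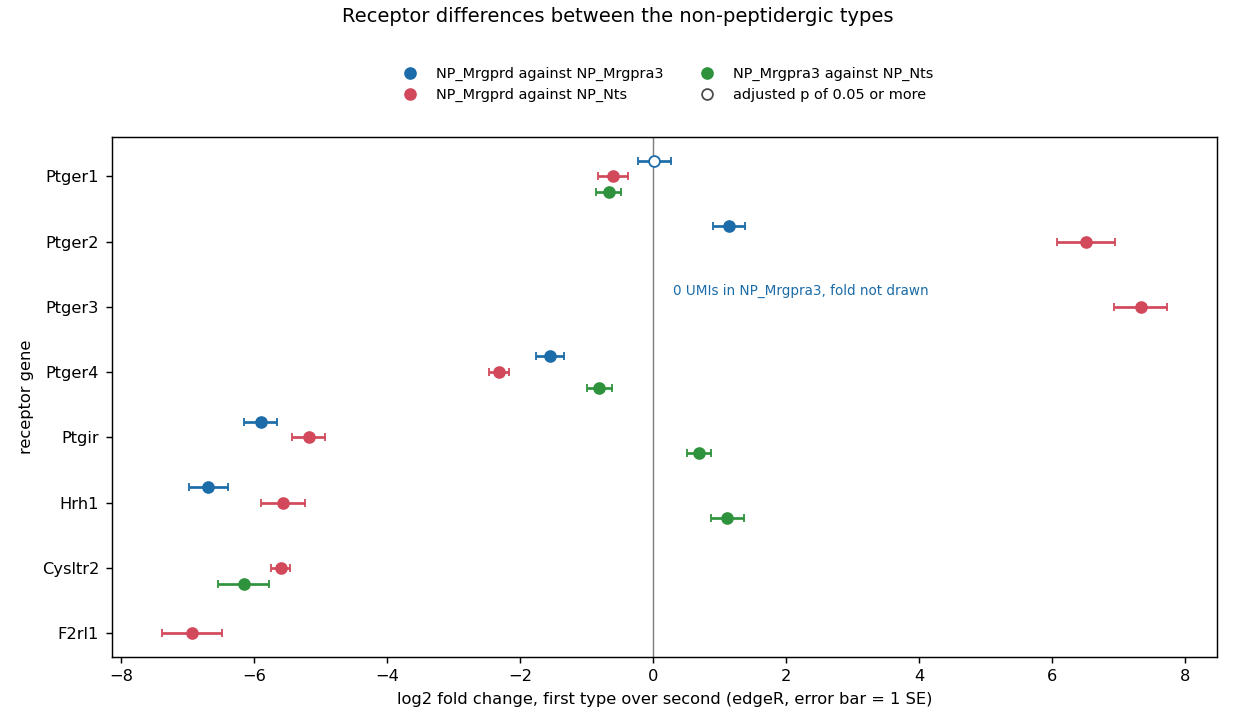
Log2 fold changes between the 3 NP types (edgeR, error bars 1 SE) for each receptor, with filled points at an adjusted p under 0.05; the first type named is higher to the right of 0. Ptger2 and Ptger3 lie on the NP_Mrgprd side and Ptgir, Hrh1, Cysltr2 and F2rl1 on the other, and Ptger1 in NP_Mrgprd against NP_Mrgpra3 is the open point.

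Single cells carried several of the 8 tested receptors at once. The mean number of receptor genes with a UMI per cell was 3.38 (libraries 3.13 to 3.86) in NP_Nts, 3.18 (libraries 3 to 4) in NP_Mrgpra3, 2.50 (libraries 2.35 to 2.90) in PEP1_S100a11.Tagln2, 2.48 (libraries 2.33 to 2.81) in PEP1_Slc7a3.Sstr2, 2.33 (libraries 2.14 to 2.51) in PEP2_Htr3a.Sema5a, 2.17 (libraries 1.99 to 2.50) in PEP1_Dcn and 1.96 (libraries 1.81 to 2.25) in NP_Mrgprd. It was 0.0562 (libraries 0.0267 to 0.0755) in satellite glia. These numbers follow depth as well as expression. With every cell thinned to 10000 UMIs, which no cell was under, NP_Nts kept the highest mean (1.25, libraries 1.17 to 1.40), and PEP1_S100a11.Tagln2 (1.14, libraries 1.00 to 1.28), PEP1_Slc7a3.Sstr2 (1.13, libraries 1.04 to 1.27), PEP1_Dcn (0.971, libraries 0.777 to 1.06) and PEP2_Htr3a.Sema5a (0.913, libraries 0.760 to 0.972) came before NP_Mrgpra3 (0.722, libraries 0.691 to 0.818) and NP_Mrgprd (0.345, libraries 0.325 to 0.428). At least 3 receptors were found in 77.8% of NP_Nts cells and none in 0.750%, while 73.2% of PEP3_Trpm8 cells and 50% of Th cells had none.

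**Figure D4:**
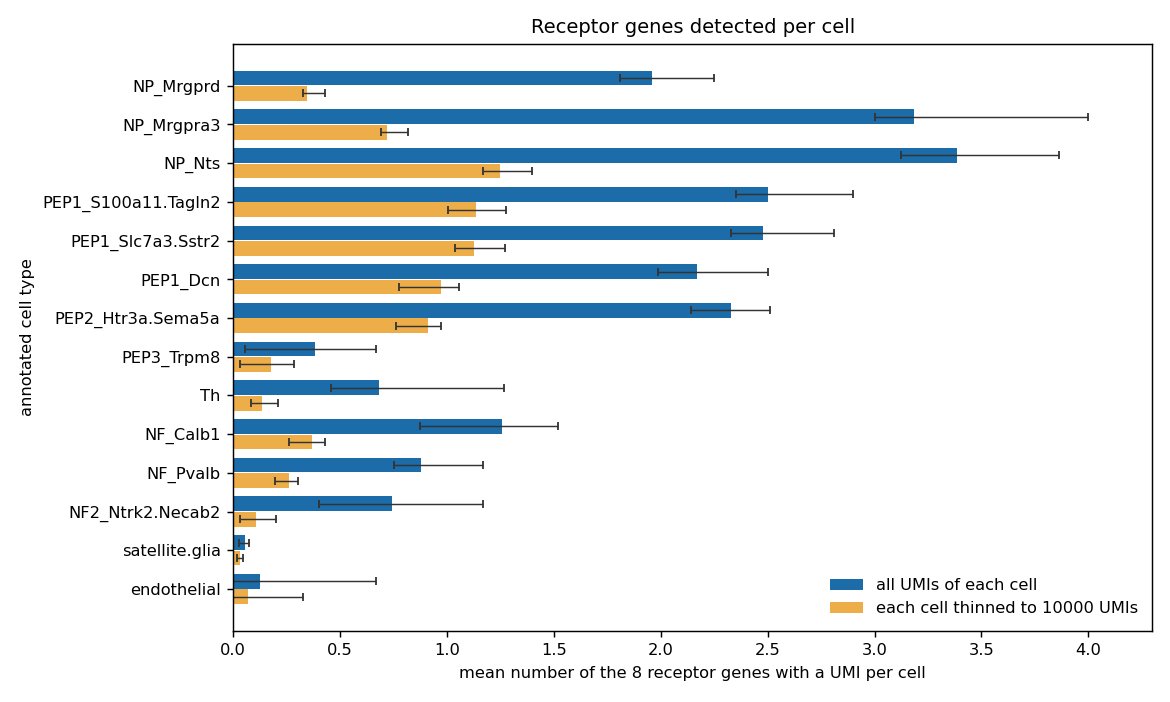
Bars give the mean number of the 8 tested receptor genes with a UMI per cell in each type, with all UMIs (upper bar) and with each cell thinned to 10000 UMIs (lower bar); lines span the lowest to the highest library mean. NP_Nts is highest on both scales, and NP_Mrgpra3 lies behind the 3 PEP1 types and PEP2_Htr3a.Sema5a after thinning.

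Within NP_Nts, Cysltr2 was found in 92.6% of the 148 cells with Hrh1 and 92.9% of those without, so that both genes occurred together as often as the share of Cysltr2 alone gives. Ptger4 was found in 71.8% of cells with Ptger1 and 59.9% of those without, in the same direction in 5 of 5 libraries, and cells with Ptger1 had the higher median UMIs (53884 against 48904). In NP_Mrgprd 260 of 900 cells had both Ptger2 and Ptger3, and 212 had neither. After thinning to 10000 UMIs, Cysltr2 was found in 50.8% of NP_Nts cells, Ptgir in 61.6% of PEP2_Htr3a.Sema5a cells, Ptger1 in 50.1% of PEP1_S100a11.Tagln2 cells and Hrh1 in 20.5% of NP_Mrgpra3 cells, and in satellite glia no receptor exceeded 0.997%.

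The genes whose levels followed each receptor most closely over the 14 types are given with Pearson's r of log2(mean CPM + 1), among 11054 genes with at least 500 UMIs. They are a description over 14 points that share libraries. For Cysltr2 they were Bmp8a (0.92), Crip3 (0.92) and Lefty1 (0.91), all highest in NP_Nts. For Hrh1 they were Mrgpra3 (0.85), Ccnjl (0.84) and Kcne3 (0.82), the first of them the receptor gene that names NP_Mrgpra3. Ptger1 was followed by Ift122 (0.95), Fam150b (0.95) and Serpina3i (0.94), Ptger2 by Rbks (0.86), Klhdc8b (0.85) and Rasl10a (0.85), Ptger3 by Prkcq (0.80), Hal (0.79) and Lypd6b (0.77), Ptger4 by Wdr41 (0.96), Stambpl1 (0.93) and Mapk14 (0.93) and Ptgir by Cdhr1 (0.91), Erlin1 (0.90) and Msantd2 (0.88).

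Other receptors of the same mediators were compared between types as well. Of 14 listed, 11 were in the table, 8 were tested in any type, and 7 were called higher in at least 1 type, where 95.7% of all genes tested were. Ptgfr, the prostaglandin F receptor, measured 33.8 ± 11.4 CPM in NF_Calb1 and 0.527 ± 0.345 CPM in the other cells, log2 fold change 5.94 ± 0.33 SE, adjusted p = 2.30e-09. Hrh2, the histamine H2 receptor, was highest in NP_Nts, at 3.57 ± 1.09 CPM in NP_Nts and 0.121 ± 0.0995 CPM in the other cells, log2 fold change 4.24 ± 0.44 SE, adjusted p = 1.36e-06. Hrh2 had 95 UMIs in all cells and passed the filter on low counts in this comparison through NP_Nts, where it was high. F2r, which encodes a thrombin receptor, was highest in NF_Calb1 (26.4 ± 9.5 CPM in NF_Calb1 and 1.46 ± 0.646 CPM in the other cells, log2 fold change 4.07 ± 0.30 SE, adjusted p = 2.70e-08). F2rl2, a further protease-activated receptor, had the most UMIs of the list and measured 231 ± 21.1 CPM in NP_Nts and 85.1 ± 14.5 CPM in the other cells, log2 fold change 1.42 ± 0.13 SE, adjusted p = 3.57e-07. Ptgdr, a prostaglandin D2 receptor, had its highest level in NP_Mrgprd (44.5 ± 4.02 CPM in NP_Mrgprd and 8.82 ± 1.40 CPM in the other cells, log2 fold change 2.58 ± 0.12 SE, adjusted p = 5.62e-10). Its next level was 27.7 CPM in NP_Mrgpra3. Some of these genes were called higher in several types. F2rl2 was also higher in NP_Mrgpra3, NP_Mrgprd and PEP1_S100a11.Tagln2 (169 CPM), and F2r also in NF2_Ntrk2.Necab2 and PEP2_Htr3a.Sema5a.

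Of 26 genes of synthesis and clearance, 22 were in the table, 15 were tested and 14 were higher in at least 1 type, no more than the share of all genes given above. The largest fold changes lay outside the neurons. Ptgis, prostacyclin synthase, measured 35.7 ± 16.4 CPM in endothelial cells and 0.0980 ± 0.0882 CPM in the other cells, log2 fold change 8.80 ± 0.64 SE, adjusted p = 2.52e-09. Pla2g4a, the phospholipase that releases arachidonic acid, measured 6.17 ± 1.71 CPM in satellite glia and 0.0147 ± 0.0329 CPM in the other cells, log2 fold change 8.80 ± 0.66 SE, adjusted p = 2.11e-09. Ptgds, a prostaglandin D2 synthase, measured 72.2 ± 16.5 CPM in satellite glia and 0.374 ± 0.210 CPM in the other cells, log2 fold change 7.64 ± 0.25 SE, adjusted p = 8.54e-14, and Ptgs1, a cyclooxygenase, 14 ± 3.73 CPM in endothelial cells and 0.0958 ± 0.0371 CPM in the other cells, log2 fold change 7.16 ± 0.59 SE, adjusted p = 1.33e-08. Ptges3, which had the most UMIs of the list, ranged over the types from 132 to 222 CPM. In satellite glia 5 of 9 tested genes of the list were higher, where 30.5% of all genes were, and in endothelial cells 3 of 9, near the 22.2% of all genes. Genes as low in the other cells as Pla2g4a, Ptgis and Ptgs1 pass the filter on low counts only through the type where they are high. Both counts are therefore no result about the list as a group. Mural cell markers in endothelial cells summed to 124 to 704 CPM, beside 4961 to 7927 CPM for Pecam1, Cldn5, Kdr, Flt1 and Cdh5, and the part of mural cells in Ptgis was not tested. Of the mural list, Rgs5 was highest in Th (178 CPM, against 113 CPM in endothelial cells), and Acta2, Pdgfrb and Kcnj8 were highest in endothelial cells.

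All 7 downstream targets were tested, and 6 were higher in at least 1 type, which is again no more than the share of all genes. Trpv1, the heat and capsaicin channel, was highest in PEP1_Dcn (459 ± 64.7 CPM in PEP1_Dcn and 54.2 ± 9.60 CPM in the other cells, log2 fold change 3.08 ± 0.15 SE, adjusted p = 2.83e-09). Trpa1, the irritant channel, was also higher there (124 ± 65.0 CPM in PEP1_Dcn and 25.8 ± 3.68 CPM in the other cells, log2 fold change 2.19 ± 0.36 SE, adjusted p = 2.05e-04). Scn10a was highest in PEP2_Htr3a.Sema5a (399 ± 56.0 CPM in PEP2_Htr3a.Sema5a and 164 ± 14.6 CPM in the other cells, log2 fold change 1.25 ± 0.11 SE, adjusted p = 6.59e-07). In PEP2_Htr3a.Sema5a, Trpv1, Trpa1 and Scn11a were called lower, and in PEP1_Dcn Scn10a and Scn11a were. Scn11a, the gene of the sodium channel Nav1.9, was higher in NP_Mrgprd (272 ± 59.9 CPM in NP_Mrgprd and 96.3 ± 6.79 CPM in the other cells, log2 fold change 1.75 ± 0.12 SE, adjusted p = 2.42e-08). Its highest level was in NP_Mrgpra3 (297 ± 72.3 CPM), where it was also called higher. Prkce, protein kinase C epsilon, was higher in PEP2_Htr3a.Sema5a (379 ± 46.4 CPM in PEP2_Htr3a.Sema5a and 257 ± 23.8 CPM in the other cells, log2 fold change 0.53 ± 0.10 SE, adjusted p = 6.51e-04). Prkce was also called higher in NP_Mrgprd and in Th (363 CPM).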

How the data were processed

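Lumbar DRG cells were captured with the Chromium 3′ assay, and per the labels Cell Ranger and Seurat were used with the mm10 assembly. The unit of the deposited table is UMI counts per gene and cell, which the authors made from their reads, after removing cells with very few or very many genes or a high mitochondrial share, and their annotation gives 1 type per cell, from clusters of the integrated libraries. By the genes named as mitochondrial in the table, 188 of the deposited cells still had over 10% mitochondrial UMIs. Whether counting used strand was not given in the sources used here. The rows carried a chromosome and strand after the symbol, through which genes were matched, and 4 rows without a gene, with 6.37e-05% of all UMIs, were left out. Library totals were 13050375 to 88886919 UMIs, and low totals limit precision most in library A.

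Counts were summed per library and type. edgeR 4.0.16 (R 4.3.3) fitted each type against the sum of all other cells of the same libraries with the quasi-likelihood test, TMM scaling, the filterByExpr filter and no covariates, over 5 libraries a side. The same test compared the 3 NP types in pairs. Adjusted p-values are Benjamini-Hochberg over all genes of a comparison. Both sums of a library come from the same mouse, and the deviations of paired sums correlated at -0.0208 to 0.396. The libraries pair the sums by origin, and the fit with the library as a block is an alternative. Neighbouring types in an order were taken to differ beyond their spread where the mean of the 5 within-library differences exceeded its SD. Intervals on shares are exact Clopper-Pearson at 95%, and a count of 0 was allowed 3 counts. Thinning gave the expected value at 10000 UMIs per cell. Per the paper's methods the loading was chosen to keep doublets few, and no doublet caller was run here, and 32 cells had over 2 times the median UMIs of their type and library. The 14 types rest on these same counts.

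The receptors, the pathway lists and the rules for named genes were chosen with earlier results of these data known. Named from each pathway list were up to 5 genes, those with the most UMIs and those with the largest fold change called, and for each receptor the 3 genes with the highest r. The marker lists of neurons, satellite glia, Schwann cells, fibroblasts, endothelial cells, mural cells and macrophages were summed per type. Alternatives were DESeq2 1.42.0, no filter, at least 10 cells per sum, the library block, equal weight of types, removal of cells over 10% mitochondrial UMIs or over 2 times the median UMIs, and leaving out each library. The fitting code was tested on simulated data. Values of 2 further genes are not reported here.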

Additional observations from a re-analysis of the deposited data

Results flagged for a closer look

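In 35 groups of 5 libraries, those of a receptor in a type with at least 50 UMIs, 4 held a library that stood apart by Dixon's criterion, which chance passes in about 1 of 20 groups. For Ptger1 in NP_Nts, library A measured 39.5 CPM from 10 cells while the other libraries measured 20.5 to 25.2 CPM. For Ptger4 in NF_Calb1, library A measured 29.4 CPM from 16 cells and the others 20.9 to 22.6 CPM. Library C stood apart for Ptger4 in PEP1_Dcn, at 32.6 CPM from 29 cells against 17.1 to 18.1 CPM. For Ptgir in PEP1_Dcn, library A measured 30.8 CPM from 4 cells and the others 94.1 to 118 CPM. Library A, the smallest, accounted for 3 of the 4, and the part of its cell number in these values was not tested.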

How the results depend on the processing

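The log2 fold change of each of the 8 receptors in its highest type kept its direction and its side of the threshold under 95 of 95 alternatives, with ranges of 6.49 to 7.96 for Cysltr2, 7.69 to 8.52 for F2rl1, 3.87 to 5.80 for Hrh1, 2.40 to 4.93 for Ptger1, 0.82 to 2.68 for Ptger2, 2.72 to 4.88 for Ptger3, 2.12 to 3.04 for Ptger4 and 2.89 to 4.66 for Ptgir. These types were chosen as the highest from the same counts and were held fixed, so the agreement is largely set by that choice. It describes the size of the fold changes and does not test which type is highest. For Ptger2 that type changed without library C, as given above. Mean levels in these types moved by less than 1 SD under 72 of 72. Giving the other 13 types equal weight turned 20 higher and 61 lower calls into 38 and 11, and reversed 4 calls: Ptger3 in NF_Calb1 (log2 fold change 1.14) and PEP1_Dcn (1.59), Cysltr2 in NP_Mrgprd (1.96) and Ptger1 in PEP2_Htr3a.Sema5a (1.83). By construction that comparison averages types on a log scale, where types near 0 pull the mean down. This raises the other types and hinders lower calls of Ptger1, Ptger3, Ptger4, Hrh1 and Cysltr2, which each had a type with 0 UMIs. The 4 reversed calls were of such genes, so the part of the weights alone cannot be read from them. Thinning cells to 10000 UMIs reduced the pairs of a receptor and a type with a UMI in at least 25% of cells from 32 of 112 to 8. With the library as a replicate block, 22 calls were higher and 62 lower, NP pair calls numbered 18 as before, and pathway calls went from 71 to 74, and 5 receptor calls changed: those of Ptger1 in PEP1_Dcn and Ptgir in NP_Mrgpra3 and NP_Nts given above, and in endothelial cells Cysltr2, which became lower (adjusted p = 0.0315), and Ptger2, no longer lower (0.0914). DESeq2, no filter, the minimum of 10 cells and both cell filters gave 20 higher calls each and 59 to 70 lower. Without 1 library, higher calls were 19 to 20, lower calls 58 to 64, NP pair calls 16 to 19 and pathway calls 64 to 77. Without library A, D or E the lower call of Ptger1 in PEP2_Htr3a.Sema5a was lost (adjusted p = 0.0813, 0.0568 and 0.0653). Counts of the low receptors F2rl1, Hrh1 and Ptger3 limit what can be said of types with under 60 cells, and with 5 libraries of 1 condition no effect of sex or treatment could be tested.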

Other observations

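Ptgir in NF_Calb1 rested on few cells with many UMIs. This split was chosen after its values were seen, by Ptgir itself, and is given with no test. Of 180 cells, 40 had a Ptgir UMI, 26 of them at least 5 and the highest 27, where 7 had 1. They occurred in all 5 libraries, as 3 of 16 cells in A, 10 of 29 in B, 10 of 44 in C, 3 of 24 in D and 14 of 67 in E. Cells with and without Ptgir measured 799 and 29.6 CPM of Calca, the peptide gene of peptidergic neurons, 354 and 3.40 CPM of Scn10a, and 218 and 27.2 CPM of Sema5a and 41.4 and 54.0 CPM of Htr3a, the genes that name PEP2_Htr3a.Sema5a. Of the cells with Ptgir, 47.5% had a Scn10a UMI, 67.5% a Sema5a UMI and 42.5% a Htr3a UMI. Calb1, the gene that names the type, measured 19.2 and 294 CPM. Nefh, the neurofilament gene, measured 5677 and 5347 CPM, and median UMIs per cell were 80088 and 76694. Whether the cells with Ptgir belong to PEP2_Htr3a.Sema5a was not tested.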
